A study of Mus musculus with 16 samples.

Results

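The RNA of whole tibialis anterior (TA) muscle was compared between denervated and sham-operated mice, gene by gene, in 8 of the 16 libraries of the series. All mice were male C57BL/6 J animals, 2 to 6 months old. In the DEN group the sciatic nerve of 1 hind limb had been transected and a piece of it removed. In the Sham group, which consisted of separate control animals, the nerve had been located and left uncut. TA muscles were taken 21 days after surgery, and 4 DEN and 4 Sham libraries were made from the polyadenylated RNA of the whole muscle with a kit that keeps the strand. The other 8 libraries came from single myofibers of the extensor digitorum longus (EDL) freed with collagenase, again 4 DEN and 4 Sham, and are used here only to show where whole TA muscle differed. The study's supplement states that its replicates are different mice, so that p values measure the spread between mice of a group. Whether TA and EDL libraries came from the same mice is not given in the sources used here.

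The TA is a fast-twitch muscle of the lower leg whose fibers are driven by motor axons of the sciatic nerve. Acetylcholine released from the axon opens receptors that cluster under the nerve ending, and the receptor of adult muscle carries an epsilon subunit where the fetal receptor carries a gamma subunit. In muscle that has lost its nerve, receptor genes are known to be transcribed along the whole fiber, under the control of myogenic factors such as myogenin. Loss of innervation is also a textbook cause of atrophy, in which protein is degraded by the ubiquitin-proteasome system and by autophagy.

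The TA libraries held 49306627 to 62203139 counts in DEN and 47570214 to 62297405 in Sham, with 22729 to 23302 and 21048 to 22033 genes detected. Genes of the mitochondrial genome took 9.33 to 10.2% of counts in DEN and 12.2 to 14.8% in Sham. The 10 most abundant genes, among them Myh4, Acta1 and Atp2a1, took 18.1 to 18.6% of counts in DEN and 25.8 to 26.9% in Sham. Spearman correlations were 0.993 to 0.996 within groups and 0.947 to 0.955 between DEN and Sham libraries, and the first principal component separated the groups with 86.8% of the variance. Levels are given throughout as CPM, the counts of a gene as a share of its library's total, scaled by the trimmed mean of M values (TMM). The 10 myofiber markers were all tested, with summed levels of 105530 to 111857 CPM in DEN and 197248 to 227100.1 CPM in Sham. Some libraries stood apart in a set of genes, counted here among genes with a group mean of at least 1 CPM. The DEN 4 library had 57 genes at more than 2 times the next DEN library, including Gbp2, Gbp4 and Irf1 of the interferon response, DEN 2 had 19 such genes including several of the matrix, Sham 1 had 31 including hemoglobin and leukocyte genes, Sham 4 had 15 including adipocyte genes, and each other library had 2. Where leaving out a library moved the value of a named gene by over 1.5 times, the value without it is given too.

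Denervation changed the level of most genes. Of 16379 genes tested, 10845 (66.2%) differed between DEN and Sham at an adjusted p under 0.05 (edgeR quasi-likelihood test, Benjamini-Hochberg), which is what "called" means below. Of these, 5572 (34.0%) were higher and 5273 (32.2%) lower in DEN. Both shares are the background for the counts of list members below. Counting only changes of 0.58 or more on the log2 scale, 6004 genes (36.7%) were called, 3155 (19.3%) higher and 2849 (17.4%) lower. In 5155 genes (31.5%) every DEN library lay above every Sham library, and in 4847 (29.6%) every DEN library lay below. This split depends on the scaling. With libraries scaled by total counts only, 9983 genes (60.9%) were called higher and 2273 (13.9%) lower, and the median over the tested genes was 0.45 on the log2 scale, against 0.02 with TMM. Of 91 genes with a mean of at least 1000 CPM, 17 were higher and 67 lower in DEN with TMM, and scaling by total counts gave 29 and 52. In whole muscle, fewer cells of a type and less RNA per cell cannot be told apart.

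**Figure D1:**
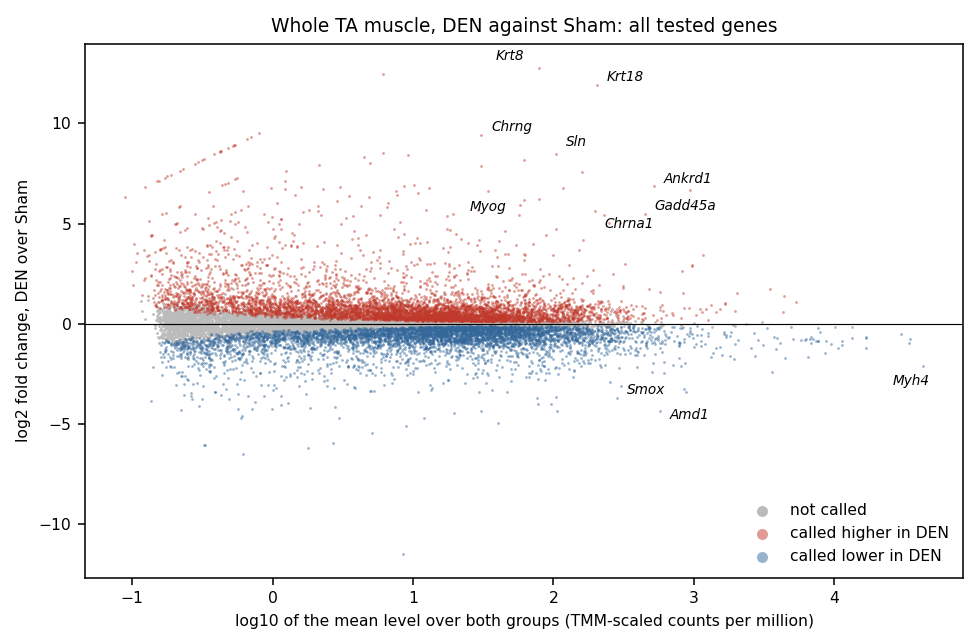
Log2 fold change of every tested gene in TA muscle, DEN over Sham (y axis), against the log10 of its mean level in TMM-scaled CPM (x axis), with genes called higher in red, called lower in blue and not called in gray. Krt8, Krt18 and Chrng lie far above 0, Amd1 and Smox far below it, and most of the genes at the right edge, such as Myh4, lie below 0.

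Krt8 and Krt18, the partner keratins of simple epithelia, and the copy Krt8-ps had the largest increases among genes with a mean of at least 10 CPM in the higher group. Krt18 was measured at 411, 387, 375 and 451 CPM in DEN, against 0.102, 0.147, 0.0756 and 0.0966 CPM in Sham, a log2 fold change of 11.91 (SE 0.123, adjusted p = 2e-12). Krt8 stood at 156, 141, 146 and 186 CPM in DEN and at no more than 0.041 CPM in Sham (log2 fold change 12.75). Its near-identical copy Krt8-ps, whose reads can be shared with Krt8, had 3145 counts in DEN and 0 in Sham, at least 786-fold higher against a floor of 3 counts over the group. Bpifb1 (log2 fold change 8.52), the cell adhesion gene Cntn2 (8.43, or 9.04 without Sham 2) and Plekhh1 (7.85) also belonged to the 10 largest increases. At the other end, the lysine methyltransferase gene Mettl21c (-4.94) and Dhrs7c (-4.0), a short-chain dehydrogenase of the sarcoplasmic reticulum, fell. Ighm, the heavy chain of IgM and a marker of B cells, fell to between 10.5 and 11.4 CPM in DEN, against 326, 87.2, 91.0 and 64.3 CPM in Sham. Its log2 fold change was -3.69 with all libraries and -2.87 without Sham 1.

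The genes of the acetylcholine receptor were all higher in DEN. Chrna1, Chrnb1, Chrng, Chrne and the regulator gene Myog are given with the 300 bases around their annotated starts, 250 before and 50 after, because E-boxes in such windows are known binding sites of myogenin and its relatives. The E-box letters CAGCTG, which read the same on both strands, and CAGGTG, searched on both strands, are in capitals, and the sequences run 5' to 3' on the gene's strand (RefSeq, GRCm38.p6). The windows lie at chr2:73580289-73580588 on the minus strand for Chrna1, chr11:69795888-69796187 on the minus strand for Chrnb1, chr1:87205561-87205860 on the plus strand for Chrng, chr11:70619145-70619444 on the minus strand for Chrne and chr1:134289754-134290053 on the plus strand for Myog. The window of Chrnd is not shown.
Chrna1: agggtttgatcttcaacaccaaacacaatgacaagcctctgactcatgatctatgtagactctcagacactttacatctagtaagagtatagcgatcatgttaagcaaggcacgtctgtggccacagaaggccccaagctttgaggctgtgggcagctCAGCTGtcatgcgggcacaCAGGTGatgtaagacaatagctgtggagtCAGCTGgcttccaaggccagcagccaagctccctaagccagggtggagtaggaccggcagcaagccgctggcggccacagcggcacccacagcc
Chrnb1: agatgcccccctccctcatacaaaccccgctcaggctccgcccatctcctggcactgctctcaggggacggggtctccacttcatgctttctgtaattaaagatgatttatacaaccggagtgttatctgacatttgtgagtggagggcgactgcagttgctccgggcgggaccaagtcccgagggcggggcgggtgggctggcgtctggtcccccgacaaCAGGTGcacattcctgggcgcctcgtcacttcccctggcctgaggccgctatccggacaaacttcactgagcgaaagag
Chrng: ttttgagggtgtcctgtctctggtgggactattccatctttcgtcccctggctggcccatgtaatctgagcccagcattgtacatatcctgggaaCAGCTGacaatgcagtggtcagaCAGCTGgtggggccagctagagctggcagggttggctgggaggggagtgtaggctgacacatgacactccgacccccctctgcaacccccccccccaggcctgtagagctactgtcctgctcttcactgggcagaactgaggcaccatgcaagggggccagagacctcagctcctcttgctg
Chrne: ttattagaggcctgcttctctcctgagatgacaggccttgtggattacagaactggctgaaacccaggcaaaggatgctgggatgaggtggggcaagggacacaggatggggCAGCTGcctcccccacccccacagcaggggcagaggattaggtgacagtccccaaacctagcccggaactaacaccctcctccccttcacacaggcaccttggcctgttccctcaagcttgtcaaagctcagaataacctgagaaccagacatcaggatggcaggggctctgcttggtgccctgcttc
Myog: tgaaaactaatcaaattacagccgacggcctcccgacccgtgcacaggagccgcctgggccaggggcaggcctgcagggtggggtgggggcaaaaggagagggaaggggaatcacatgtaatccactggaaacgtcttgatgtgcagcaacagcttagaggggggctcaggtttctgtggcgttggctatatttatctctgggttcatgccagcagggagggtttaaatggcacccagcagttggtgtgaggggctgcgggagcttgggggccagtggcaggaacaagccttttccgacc
Chrna1 had 3 E-boxes, Chrng 2, Chrnb1 and Chrne 1 each, and the Myog window held neither of the 2 forms. Of 32851 RefSeq windows of the same length, 32.9% held at least 1 of these forms, 7.4% at least 2 and 1.4% at least 3. A match describes the letters of the window and not a bound site.

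Chrna1, the alpha subunit that binds acetylcholine, reached 369.7, 364, 465 and 351 CPM in DEN, against 8.17, 8.64, 7.31 and 7.0 CPM in Sham, a log2 fold change of 5.64 (SE 0.115, adjusted p = 1.3e-10). Chrnd, the delta subunit, reached 140.2, 156, 197 and 136 CPM in DEN and stayed at 1.9, 2.18, 2.55 and 1.68 CPM in Sham (log2 fold change 6.24). The groups were far apart in both genes, with no overlap. Chrng, the fetal gamma subunit, was close to silent in Sham. Chrng stood at 55.0, 50.6, 90.4 and 48.3 CPM in DEN, against 0.164, 0.049, 0.0756 and 0.058 CPM in Sham (log2 fold change 9.41, SE 0.353). The DEN 3 library was the highest DEN library for Chrna1, Chrnd and Chrng alike. Chrnb1, the beta subunit, started from a higher Sham level and changed less, with 143 ± 6.53 CPM in DEN and 26.8 ± 4.37 CPM in Sham (SD, n = 4 each, log2 fold change 2.41). Chrne, the adult epsilon subunit, was also higher, at 21.5, 17.7, 24.5 and 20.7 CPM in DEN and 10.3, 14.6, 12.3 and 12.1 CPM in Sham (log2 fold change 0.78, adjusted p = 0.00014). On the per-length scale (RPKM), gamma made up 51.0, 53.7, 60 and 48.6% of the sum of gamma and epsilon in DEN, against 0.64, 0.136, 0.25 and 0.194% in Sham. This difference of 53 percentage points gave p = 0.0286 in an exact two-sided permutation test, the smallest p that 4 against 4 libraries allow.

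The genes that organise the neuromuscular junction around the receptor moved less uniformly. Of the 18 receptor and junction genes tested, 9 were higher and 4 lower in DEN, with a median log2 fold change of 0.30 (0.02 over all tested genes). Musk, the receptor tyrosine kinase that gathers acetylcholine receptors, rose to 27.0, 27.5, 42.2 and 31.0 CPM in DEN, against 3.85, 4.77, 5.27 and 3.11 CPM in Sham (log2 fold change 2.91). Its partner Lrp4, the agrin receptor, showed a smaller increase (0.48), and the nerve and muscle signal gene Agrn a decrease (-0.32) that was not called with total counts only. Dok7 (-0.06), Rapsn (0.12) and Colq (-0.04), which encode an adaptor of MuSK, the receptor anchor rapsyn and the collagen tail of acetylcholinesterase, were not called. Ache, the esterase that ends transmission, fell to 13.3 ± 1.28 CPM in DEN, against 51.4 ± 1.35 CPM in Sham (SD, n = 4 each, log2 fold change -1.95). Lrp4, Agrn, Dok7, Rapsn, Colq and Ache were chosen after their values were seen. Ncam1, the cell adhesion molecule that spreads over the surface of denervated fibers, belonged to another list and rose, with 68.7, 74.3, 97.6 and 71.5 CPM in DEN against 4.16, 5.24, 4.65 and 3.9 CPM in Sham (log2 fold change 4.12).

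**Figure D2:**
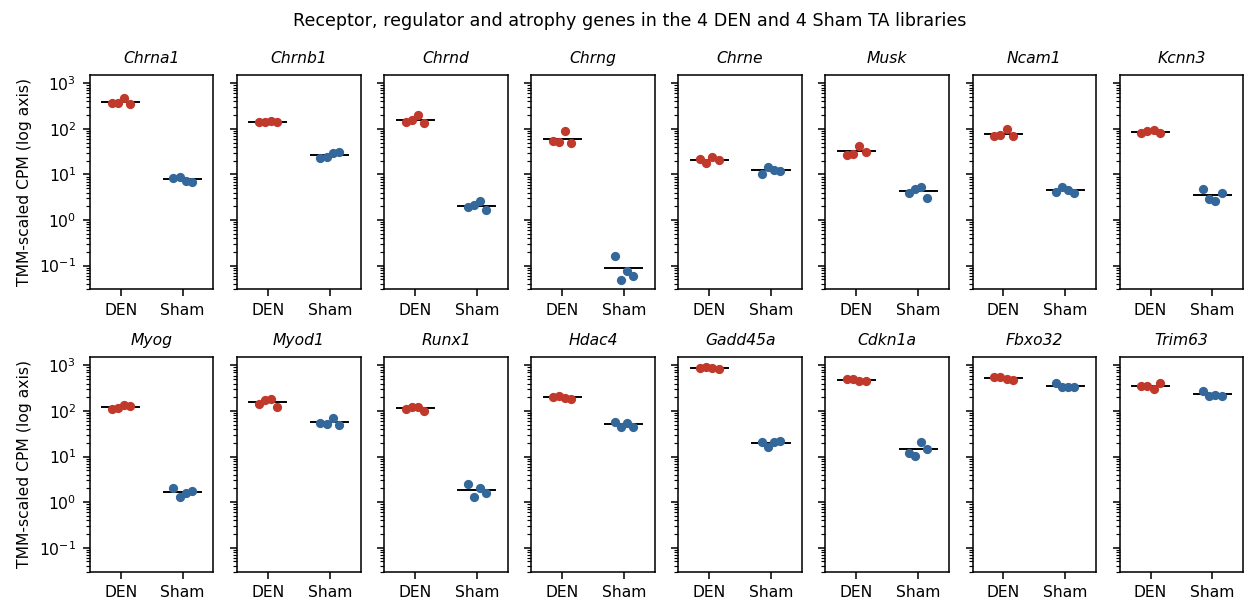
Levels of 16 genes in each TA library, DEN left and Sham right, in TMM-scaled CPM on a log axis, with a point for each library and a line at the group mean. The groups do not overlap in any of the 16 panels, and the distance between them runs from a log2 fold change of 0.56 for Fbxo32 to 9.41 for Chrng.

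Myogenin and Runx1 led the transcription factors known to respond to denervation. Of 20 such regulators tested, 11 were higher and 4 lower, with a median log2 fold change of 0.52. Myog, which encodes myogenin, stood at 109, 114, 137 and 129 CPM in DEN, against 2.03, 1.32, 1.55 and 1.74 CPM in Sham (log2 fold change 6.19, SE 0.123, adjusted p = 1.2e-10). Runx1, a factor known to limit wasting of denervated fibers, stood at 108, 122, 125 and 102 CPM in DEN, against 2.52, 1.3, 2.04 and 1.58 CPM in Sham (log2 fold change 5.93). Myod1, a myogenic factor already well expressed in Sham muscle, rose less, to 139, 172, 184 and 122 CPM in DEN, against 54.4, 50.7, 69.1 and 50.1 CPM in Sham (1.46). Sox11 (log2 fold change 4.56) and Id2 (4.10), a dominant negative partner of myogenic factors, rose too. Hdac4, a histone deacetylase that represses the repressor Dach2 in denervated muscle, reached 207, 214, 189 and 184 CPM in DEN, against 56.8, 44.6, 55.3 and 45.3 CPM in Sham (log2 fold change 1.97). Dach2, Hdac5 and Mef2d were among the 4 genes that fell.

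The 2 ubiquitin ligases most used as markers of atrophy, Fbxo32 (atrogin-1) and Trim63 (MuRF1), were only modestly higher at 21 days. Fbxo32 had 550, 551, 512 and 487 CPM in DEN and 419, 330.1, 331 and 343 CPM in Sham (log2 fold change 0.56, SE 0.08, adjusted p = 0.0001). Trim63 had 360.2, 359, 311 and 403 CPM in DEN and 277, 218, 221 and 211 CPM in Sham (0.63, SE 0.097, adjusted p = 0.00019). In both genes Sham 1 was the highest Sham library, and the groups did not overlap. Fbxo30, a ligase of the BMP pathway known as MUSA1, changed more, to 42.2 ± 4.11 CPM in DEN and 15.9 ± 0.482 CPM in Sham (SD, n = 4 each, log2 fold change 1.41). Tnfrsf12a, the receptor of the cytokine TWEAK, rose with a log2 fold change of 1.67 and Foxo1, a transcription factor that drives atrophy genes, with 0.73, while Foxo4 fell (-0.95). Over the 21 atrophy and FoxO genes, 9 were higher and 6 lower (median 0.12), and with total counts only 15 were higher and 1 lower (median 0.55).

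Genes of the p53 pathway and of growth arrest included several with steep increases. Gadd45a, a stress-induced regulator of chromatin in denervated muscle, was measured at 859.7, 944, 861 and 828 CPM in DEN, against 20.7, 15.8, 21.0 and 21.6 CPM in Sham (log2 fold change 5.46, SE 0.105). Cdkn1a, which encodes the cell cycle inhibitor p21, was measured at 509.7, 513, 449 and 454 CPM in DEN, against 12.1, 10.1, 20.5 and 15 CPM in Sham (5.05). Both genes were tightly grouped within DEN. Eda2r, the ectodysplasin A2 receptor and a p53 target, rose to 114 ± 4.93 CPM in DEN, against 10.5 ± 1.12 CPM in Sham (SD, n = 4 each, 3.44), and the pro-apoptotic gene Bbc3 rose by 2.28 on the log2 scale. In the list of 17 tested p53 and Gadd45 genes, 9 were higher and 3 lower (median 0.54), the lower ones being Gadd45b, Gadd45g and Ccng1.

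Nearly all subunit genes of the proteasome and ribosome rose. Of 31 proteasome subunit genes, 30 were called higher and 0 lower (median log2 fold change 0.57), and Psmb2 alone was not called (0.12). Psmb5, a catalytic subunit of the core particle, had 148, 144, 155 and 146 CPM in DEN and 69.6, 69.0, 72.2 and 70.8 CPM in Sham (log2 fold change 1.07, SE 0.039). Summed over the list, the subunits reached 5084 to 5195 CPM in DEN and 3395 to 3593 CPM in Sham. Of 79 cytosolic ribosomal protein genes, 78 were higher and 1 was lower (median 0.80). The largest change was that of Rpl3, known to be kept low in mature muscle where its paralog Rpl3l replaces it, with 161, 155, 167 and 147 CPM in DEN and 27.9, 27.4, 24.6 and 31.3 CPM in Sham (2.50). The summed ribosomal protein level was 14719 to 16274 CPM in DEN, against 8763 to 9392 CPM in Sham. Reads of ribosomal protein genes can be shared with their processed pseudogenes, so that single members are uncertain. Processed pseudogenes as a class were called higher in 659 and lower in 268 of 1450 tested.

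Autophagy and amino acid genes moved in part. Among 28 autophagy and lysosome genes, 17 were higher and 5 lower (median 0.20). Map1lc3a, a coat protein of autophagosomes, rose to 482 ± 10.9 CPM in DEN, against 139.7 ± 15.1 CPM in Sham (SD, n = 4 each, log2 fold change 1.79), and its relative Gabarapl1 rose by 1.24. Ctsl, a lysosomal protease induced in most forms of atrophy, reached 285, 261, 311 and 309 CPM in DEN, against 90.1, 85.3, 91.1 and 88.4 CPM in Sham (1.71). Ulk1, Ulk2, Tfeb, Lamp1 and Optn were the 5 lower members. Among 17 ATF4 and serine synthesis genes, 10 were higher and 5 lower (median 0.25). Higher were Slc7a5, a transporter of large neutral amino acids, with 19.1 ± 1.07 CPM in DEN and 2.37 ± 0.409 CPM in Sham (3.00), Mthfd2 of mitochondrial folate metabolism (2.58), the serine synthesis gene Psat1 (2.27) and asparagine synthetase Asns (2.19). Atf4 itself was among the lower members.

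Fast sarcomere genes were mostly lower in DEN. Of 20 fast sarcomere and calcium handling genes, 17 were lower and 1 higher in DEN (median log2 fold change -0.94, and -0.51 with total counts only). Myh4, the heavy chain of the fastest (IIb) fibers and the gene with the most counts in Sham muscle, fell to 14817, 16926, 17067 and 16866 CPM in DEN, against 71533, 70106, 78262 and 58162 CPM in Sham (-2.08, SE 0.097, adjusted p = 2.2e-08). The higher member was Myh2, the heavy chain of IIa fibers. As a share of the summed RPKM of 6 myosin heavy chain genes, Myh4 made up 49.2 ± 1.05% in DEN and 81.9 ± 3.56% in Sham (SD, n = 4 each). Myh1 (IIx) made up 36.3 ± 0.571% in DEN and 16.0 ± 3.2% in Sham, and Myh2 made up 13.5 ± 1.32% in DEN and 1.61 ± 0.417% in Sham. The share of Myh1 was larger in DEN without a higher mean level, which was 12797 CPM in DEN and 14129 CPM in Sham. The groups did not overlap in any of these shares, with an exact permutation p of 0.0286 each (two-sided, adjusted p = 0.0286 over 9 shares). Myh7, the slow heavy chain, made up 0.00622 ± 0.00125% in DEN and 0.00251 ± 0.000699% in Sham and its level was not called by edgeR (2.96 ± 0.517 CPM in DEN, 3.03 ± 0.86 CPM in Sham, adjusted p = 0.91). The myosin light chain kinases fell steeply, Mylk4 to 134, 171, 155 and 142 CPM in DEN, against 1493, 1746, 1834 and 1359 CPM in Sham (-3.42), and Mylk2 by 3.23 on the log2 scale.

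Several slow and developmental sarcomere genes rose, while Myh7 was not called. Of 16 slow genes tested, 10 were higher and 1 (Myh7b) lower, with a median of 0.90. Sln, which encodes sarcolipin, an inhibitor of the calcium pump, stood at 196, 266, 165 and 201 CPM in DEN, against 0.553, 0.661, 0.718 and 0.406 CPM in Sham (log2 fold change 8.47, SE 0.203). Myom3, a myomesin of the M-band, stood at 564, 552, 659 and 549 CPM in DEN, against 24.9, 17.1, 13.2 and 16.7 CPM in Sham (5.01). The slow troponins Tnni1 (4.01) and Tnnt1 (3.57) rose to 21.2 ± 4.84 and 32.5 ± 7.26 CPM in DEN, against 1.33 ± 0.303 and 2.75 ± 0.376 CPM in Sham (SD, n = 4 each). Of 10 developmental sarcomere genes, 5 were higher and 4 lower (median 0.02). Myh3, the embryonic heavy chain that marks regenerating and denervated fibers, had 129, 135, 268 and 173 CPM in DEN and 76.4, 80.8, 58.7 and 97.9 CPM in Sham (1.17, SE 0.227), with DEN 3 well above the other DEN libraries. Mybph, a myosin binding protein, rose much more, to 422, 395, 454 and 509 CPM in DEN, against 9.34, 12.9, 7.01 and 12.3 CPM in Sham (5.43), and the cardiac and embryonic troponin Tnnt2 rose by 3.26. The lower members were Myh8, Acta2, Myl9 and Tpm4.

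Proteins that sense stretch at the Z-disc and I-band included strongly higher genes. Ankrd1, a titin-binding ankyrin repeat protein induced by mechanical load and denervation, reached 935, 933, 1151 and 1124 CPM in DEN, against 5.63, 7.52, 7.14 and 15.4 CPM in Sham (log2 fold change 6.85, SE 0.301). Csrp3, the muscle LIM protein, reached 305, 209, 363 and 360.2 CPM in DEN, against 12.5, 13.0, 7.9 and 35.0 CPM in Sham (4.17, and 4.80 without Sham 4). Sham 4 was the highest Sham library for both genes and still lay far below DEN. Of 18 stretch and intermediate filament genes, keratins included, 11 were higher and 5 lower (median 0.68).

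Genes of excitation and of its coupling to contraction were mostly lower, with a few exceptions that rose steeply. Of 20 sodium, chloride and potassium channel genes tested, 15 were lower and 4 higher (median log2 fold change -1.0). Kcnn3, the small-conductance calcium-activated potassium channel SK3 behind the afterhyperpolarisation of denervated muscle, rose to 86.5 ± 5.32 CPM in DEN, against 3.53 ± 0.978 CPM in Sham (SD, n = 4 each, 4.61). Kcnk5, a background potassium channel, rose to 61.8, 85.1, 73.3 and 51.2 CPM in DEN, against 0.492, 1.1, 0.68 and 0.503 CPM in Sham (6.64). Kcna7, a voltage-gated potassium channel of muscle, fell to 26.9 ± 1.2 CPM in DEN, against 149 ± 8.17 CPM in Sham (-2.47), and Clcn1, the chloride channel that stabilises the resting membrane, was among the lower members too.

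Of 22 excitation-contraction coupling genes, 13 were lower and 4 higher (median -0.49), and with total counts only 10 were lower and 10 higher (median -0.06). The junctophilins, which hold the tubule and reticulum membranes together, fell. Jph2 had 335, 364, 354 and 371 CPM in DEN and 1431, 1413, 1434 and 1263 CPM in Sham (log2 fold change -1.96), and Jph1 fell by 1.43 on the log2 scale. Rrad, a small GTPase that inhibits calcium channels, went the other way, with 353, 345, 267 and 308 CPM in DEN and 2.36, 1.35, 1.21 and 1.82 CPM in Sham (7.56, SE 0.181). Of 15 genes of the dystrophin complex, 10 were lower and 2 higher (median -0.26), but with total counts only 6 were lower and 6 higher and the median was 0.17. Nos1, the neuronal nitric oxide synthase anchored to the complex, fell under both scalings, to 47.0 ± 6.4 CPM in DEN, against 145 ± 4.81 CPM in Sham (SD, n = 4 each, -1.63, and -1.20 with total counts only).

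Glycolysis genes were almost uniformly lower under both scalings. Of 28 glycolysis and glycogen genes, 27 were lower and 1, the glycogen branching enzyme gene Gbe1, was higher, with a median log2 fold change of -1.24. With total counts only, 25 were lower and 1 higher (median -0.81). Their summed level was 31519.5 to 34159.7 CPM in DEN and 67340.4 to 71724 CPM in Sham. Slc16a3, the lactate exporter MCT4, fell to 57.6, 65.4, 60.9 and 64.0 CPM in DEN, against 511, 498, 545 and 604 CPM in Sham (-3.12, SE 0.072). Fbp2, muscle fructose bisphosphatase, fell by 2.82 on the log2 scale, and Gpd1, the enzyme of the glycerol phosphate shuttle, fell to 161 ± 13.0 CPM in DEN, against 849.6 ± 25.9 CPM in Sham (SD, n = 4 each, -2.40). Ckm, the muscle creatine kinase that buffers ATP, fell to 9926, 10141, 9841 and 10801 CPM in DEN, against 23674, 22743, 24453 and 23885 CPM in Sham (-1.22).

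Respiratory chain genes were lower as well, but less so, and for the nuclear genes the direction rests on the scaling. All 13 protein genes of the mitochondrial genome were called lower (median log2 fold change -0.85), and 12 of them also with total counts only. mt-Nd2, a subunit of complex I, had 4759, 4604, 4524 and 4248 CPM in DEN and 10779.7, 13060.2, 12342 and 13968 CPM in Sham (-1.47, SE 0.081). Of 74 nuclear oxidative phosphorylation subunits, 57 were lower and 4 higher (median -0.24), whereas with total counts only 2 were lower and 44 higher (median 0.19). Ndufs7, a core subunit of complex I, fell to 184, 160, 178 and 169.8 CPM in DEN, against 258, 273, 259 and 303 CPM in Sham (-0.66, and -0.23 with total counts only). The tricarboxylic acid cycle behaved alike, with 14 of 20 genes lower and 1 higher (median -0.28), but 3 lower and 10 higher with total counts only (median 0.15). Cs, citrate synthase, had 729.6 ± 14.7 CPM in DEN and 1049.5 ± 8.12 CPM in Sham (SD, n = 4 each, -0.52, and -0.09 with total counts only). Idh3a, a subunit of the cycle's NAD-linked isocitrate dehydrogenase, was lower under both scalings (-0.97, and -0.54 with total counts only). The 13 regulators of mitochondrial biogenesis had 11 lower and 2 higher members, with a median of -0.21 that turned to 0.22 with total counts only. Perm1, a muscle regulator induced by PGC-1 alpha, fell to 83.6, 89.7, 75.9 and 74.2 CPM in DEN, against 316, 377, 322 and 406 CPM in Sham (-2.14).

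Lipid genes were divided. Of 23 genes of fatty acid oxidation and uptake, 12 were lower and 4 higher (median log2 fold change -0.17), but 3 were lower and 12 higher with total counts only (median 0.26). Lpl, the lipase that releases fatty acids from lipoproteins, fell to 167, 146, 127 and 126 CPM in DEN, against 328, 344, 344 and 350.1 CPM in Sham (-1.27), and the fatty acid transporter Cd36 fell by 0.70 on the log2 scale. Of 12 lipogenic enzymes, 9 were lower and 3 higher (median -0.50), but 3 were lower and 5 higher when scaled by total counts (median -0.07). Scd1, the stearoyl-CoA desaturase, was higher, with 87.7, 103, 125 and 129 CPM in DEN and 25.3, 32.5, 14.2 and 83.7 CPM in Sham. Its log2 fold change was 1.51, or 2.22 without Sham 4, the library with high adipocyte genes.

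Polyamine enzymes lay near the shares of all tested genes as a list, with steep changes in single members. Of 12 tested, 4 were higher and 4 lower (33.3% each, median log2 fold change -0.03), against 34.0% and 32.2% of all tested genes. With total counts only, 8 were higher and 3 lower (median 0.4). Amd1, S-adenosylmethionine decarboxylase, fell to 55.1, 62.3, 51.0 and 46.5 CPM in DEN, against 1135, 1038, 1248 and 975 CPM in Sham (log2 fold change -4.35, SE 0.111, adjusted p = 3.9e-10). Smox, spermine oxidase, fell to 39.0, 44.8, 40.0 and 38.1 CPM in DEN, against 505, 458, 606 and 549 CPM in Sham (-3.71). The groups did not overlap in either gene, and Sham exceeded DEN by 20.4-fold for Amd1 and 13.1-fold for Smox. Odc1, ornithine decarboxylase, which supplies the pathway, rose to 311, 269.5, 302 and 307 CPM in DEN, against 122, 98.2, 183 and 139.8 CPM in Sham (1.13). Srm (spermidine synthase), Sat1 (spermidine/spermine acetyltransferase) and the antizyme gene Oaz1 were the other higher members of 12, and Oaz2 and Amd2 the other lower ones. Amd2, Amd-ps3 and Amd-ps4, which lay between -4.44 and -4.34, are near-identical copies of Amd1 that can share its reads.

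Secreted factors included members with steep changes in both directions. Of 39 genes of TGF-beta, BMP and activin signalling, 16 were higher and 17 lower (median log2 fold change 0.13). Gdf5, a BMP-type ligand that limits denervation atrophy in mice, rose to 21.6, 18.8, 25.8 and 20.3 CPM in DEN, against 0.307, 0.22, 0.246 and 0.174 CPM in Sham (6.5, SE 0.161), and Gdf6 rose by 5.70 on the log2 scale. Mstn, which encodes myostatin, the negative regulator of muscle mass, fell to 6.87, 7.37, 8.05 and 7.02 CPM in DEN, against 45.1, 39.5, 43.0 and 37.4 CPM in Sham (-2.49). Fst, follistatin, an antagonist of myostatin and activin, rose to 15.8 ± 3.58 CPM in DEN, against 2.34 ± 0.308 CPM in Sham (SD, n = 4 each, 2.76). Tgfb1 rose to 39.6, 42.3, 40.8 and 39.0 CPM in DEN, against 9.69, 7.2, 7.18 and 10.1 CPM in Sham (2.24).

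Of 40 growth factors and myokines tested, 12 were higher and 21 lower (median log2 fold change -0.42, and 0.01 with total counts only). Spp1, osteopontin, rose to 44.1, 36.2, 31.8 and 37.9 CPM in DEN, against 2.23, 0.465, 0.283 and 0.406 CPM in Sham (5.47, or 6.62 without Sham 1, the highest Sham library). Lgals3, galectin-3, rose to 17.7, 21.2, 29.6 and 26.5 CPM in DEN, against 6.21, 1.42, 1.93 and 2.16 CPM in Sham (3.01, or 3.67 without Sham 1). Gdf15, a stress-induced cytokine, was at 2.23 ± 0.337 CPM in DEN and 0.0584 ± 0.037 CPM in Sham (SD, n = 4 each, 5.24). Ostn, osteocrin, was lower with overlapping groups, at 3.21, 2.97, 3.27 and 5.31 CPM in DEN and 4.4, 5.56, 4.97 and 7.33 CPM in Sham (-0.60, adjusted p = 0.024). Scaling by total counts ended the call (-0.17, adjusted p = 0.48), as did leaving out any of DEN 1, DEN 2, DEN 3 or Sham 4. Among 16 neurotrophic and axon guidance genes, 10 were lower and 1 higher (median -0.64, with 3 lower and 4 higher with total counts only). The higher gene was Gdnf, a survival factor for motor neurons, with 4.14 ± 0.855 CPM in DEN and 0.525 ± 0.231 CPM in Sham (2.99). Ntf5, which encodes neurotrophin-4, fell to 1.03, 1.47, 1.54 and 1.41 CPM in DEN, against 7.64, 7.96, 8.13 and 7.73 CPM in Sham (-2.53).

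**Figure D3:**
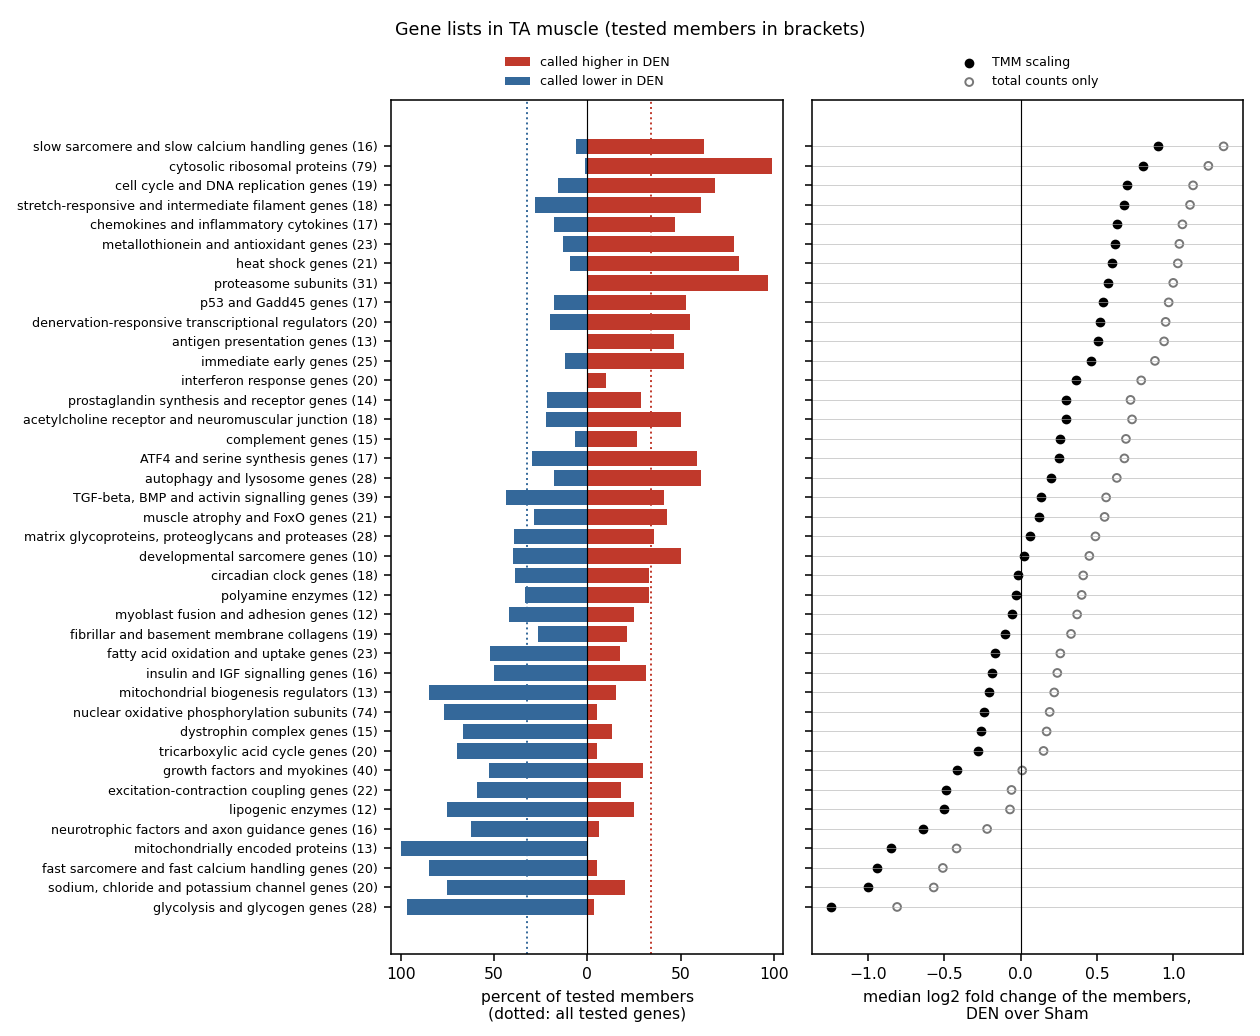
For 40 gene lists, the percent of tested members called higher (red, right) and lower (blue, left) in DEN TA muscle, and the median log2 fold change of the members with TMM scaling (filled) and with total counts only (open). Dotted lines mark the percent of all tested genes called in each direction, 34.0% and 32.2%, and the shift to total counts moves all medians to the right and turns the sign of 11 of them.

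The extracellular matrix showed no common direction. Of 28 matrix glycoproteins, proteoglycans and proteases, 10 were higher and 11 lower (median log2 fold change 0.06), and of 19 collagen genes 4 were higher and 5 lower (median -0.10, and 0.33 with total counts only). Timp1, an inhibitor of metalloproteinases, rose to 12.5, 15.5, 15.7 and 12.9 CPM in DEN, against 0.86, 0.245, 0.265 and 0.754 CPM in Sham (4.71). Postn, periostin, had 20, 89.5, 15.1 and 25.9 CPM in DEN and 6.37, 2.28, 3.86 and 6.8 CPM in Sham (2.95, or 2.07 without DEN 2). Tnc, tenascin-C, had 11.2, 26.5, 5.53 and 15.2 CPM in DEN and 3.07, 1.0, 2.14 and 3.85 CPM in Sham (2.52). DEN 2 was the highest library for both genes. Without DEN 2, 4 collagen genes were higher and 9 lower (median -0.45). Col19a1 (4.07) and Col25a1 (3.41, or 4.46 without Sham 3), a transmembrane collagen of muscle needed for motor innervation in mice, were higher, and Col4a3 (-1.74) and Col15a1 (-0.96) of the basement membrane zone lower.

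Markers of mononuclear cells were examined because whole muscle holds many cell types besides fibers. The 16 markers of fibro-adipogenic progenitors had 11 lower and 1 higher member (median log2 fold change -0.46), and their summed level was 815 to 1042 CPM in DEN and 1249 to 1586 CPM in Sham. With total counts only, 6 were lower and 4 higher (median -0.03). The 15 endothelial markers had 12 lower and 1 higher member (median -0.69), with sums of 528 to 634 CPM in DEN and 837 to 958 CPM in Sham. Kdr, the main VEGF receptor, fell to 50.9, 46.0, 40.7 and 34.3 CPM in DEN, against 99.1, 100.1, 88.7 and 94.7 CPM in Sham (-1.15), and Cdh5, VE-cadherin, fell to 76.7 ± 3.88 CPM in DEN, against 137 ± 6.87 CPM in Sham (SD, n = 4 each, -0.84). Of 12 pericyte and smooth muscle markers, 11 were lower and 1 higher (median -0.75), the higher one being Des, which muscle fibers express too and which lifted the summed level to 5291 to 6079 CPM in DEN, against 4169 to 4335 CPM in Sham.

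Most markers listed for myelin and Schwann cells were lower, and most of those listed for repair Schwann cells were higher. Of 13 markers of myelin and Schwann cells tested, 9 were lower and 1 (Egr2) higher, with a median of -1.16 and sums of 28.4 to 34.0 CPM in DEN and 63.4 to 78.4 CPM in Sham. Prx (periaxin) fell to 0.802 ± 0.0288 CPM in DEN, against 5.61 ± 0.534 CPM in Sham (SD, n = 4 each, log2 fold change -2.80), and the tight junction gene Cldn19 of myelin fell by 4.70 on the log2 scale. Of 7 tested markers of repair Schwann cells, 6 were higher and 1 lower (median 1.54), though several of them, such as Jun and Gdnf, are also made by other cells. Their summed level was lower, at 476 to 565 CPM in DEN and 583 to 669 CPM in Sham, and the lower member, the water channel gene Aqp1, held 236 ± 29.1 CPM in DEN and 536 ± 41.4 CPM in Sham (SD, n = 4 each). Ngfr, the low-affinity neurotrophin receptor, had 2.87, 2.77, 2.6 and 2.67 CPM in DEN and 1.72, 1.81, 1.66 and 1.58 CPM in Sham (0.69), a call that was lost with all 16 libraries in 1 fit (adjusted p = 0.18). Of 12 tendon cell markers 6 were higher and 0 lower (median 0.83), with sums of 271 to 530.3 CPM in DEN and 123 to 297 CPM in Sham that overlap. Leaving out Sham 1, DEN 2 or DEN 4 alone gave 4 higher and 0 lower, and without DEN 4 the median was 0.54. Scx, scleraxis, which defines tendon cells, rose to 58.2, 41.6, 98.4 and 60.6 CPM in DEN, against 13.2, 5.88, 7.29 and 8.81 CPM in Sham (2.87). Prg4, lubricin, a gene chosen after its values were seen, varied within DEN between 8.45 and 71.8 CPM, against 5.82 to 7.6 CPM in Sham.

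Leukocyte markers depended on a Sham library. Of 17 macrophage markers, 7 were higher and 2 lower (median log2 fold change 0.66), and their sums were 107, 115, 114 and 121 CPM in DEN and 127, 61.9, 56.7 and 70.3 CPM in Sham. Sham 1 was the highest Sham library for 16 of the 17 markers, and without it 15 were higher and 1 lower (median 0.94). Cd68, a lysosomal protein of macrophages, had 9.36, 8.04, 11.6 and 11.7 CPM in DEN and 4.34, 1.57, 1.4 and 2.01 CPM in Sham (2.12). Lyve1, a marker of resident macrophages and of lymphatic vessels, went down, to 0.83 ± 0.221 CPM in DEN against 1.95 ± 0.558 CPM in Sham (SD, n = 4 each, -1.22). Of 10 neutrophil markers, 3 passed the filter on low counts, and S100a8, which encodes a calcium-binding alarmin, was called higher, with 15.9, 12.5, 17.2 and 14 CPM in DEN and 0.369, 0.049, 0.0189 and 0.155 CPM in Sham (6.62, or 7.58 without Sham 1). S100a9, its usual partner, was not called (0.4 ± 0.145 CPM in DEN, 0.223 ± 0.127 CPM in Sham), and the neutrophil surface marker Ly6g had no count. The hemoglobin and other erythroid markers gave no calls, with sums of 302 to 428 CPM in DEN and 309 to 946 CPM in Sham, the highest in Sham 1. Whether blood or leukocytes in Sham 1 had a part in these results was not tested.

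**Figure D4:**
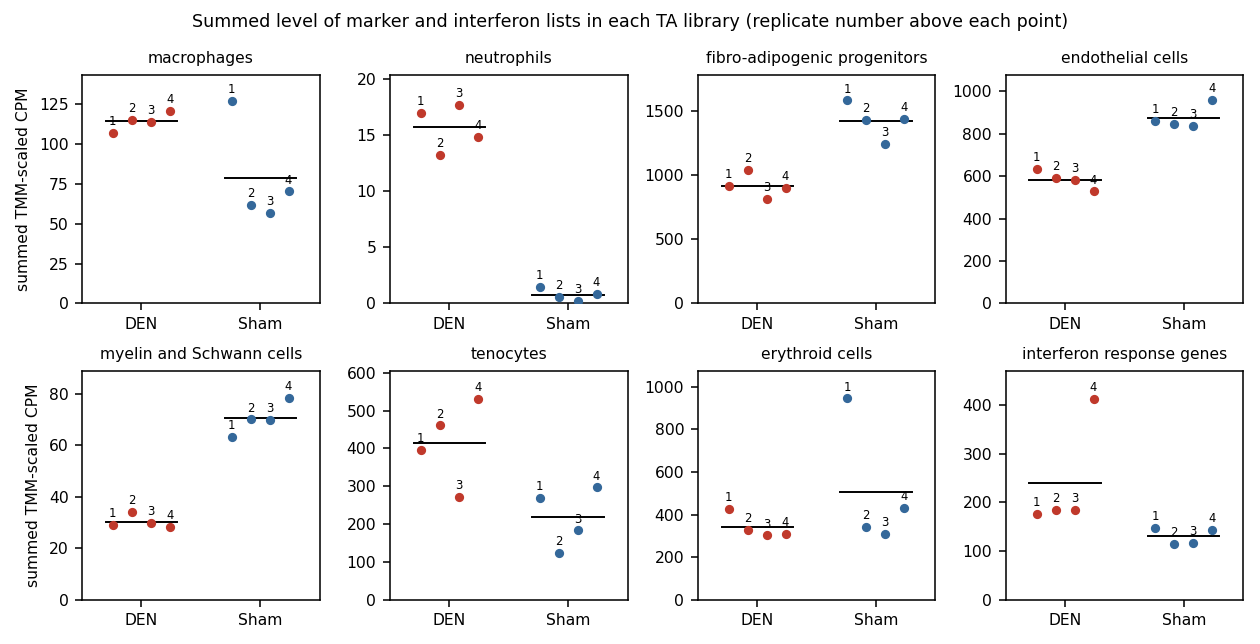
Summed TMM-scaled CPM of 7 marker lists and of the interferon response genes in each TA library, DEN left and Sham right, numbered by replicate, with a line at the group mean and axes that start at 0. Sham 1 stands above the other Sham libraries for macrophages and erythroid cells, DEN 4 above the other DEN libraries for interferon genes, and endothelial, progenitor and myelin sums lie lower in DEN without overlap.

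The interferon and complement lists gave few calls. Of 20 interferon response genes, 2 were higher and 0 lower, with sums of 176, 185, 184 and 413 CPM in DEN and 147, 114, 117 and 143 CPM in Sham. The DEN 4 library alone had the high sum, for example with 74.5 CPM of Gbp2 and 11.8 CPM of Cxcl9, against at most 9.6 and 1.5 CPM in the other DEN libraries. Without DEN 4, 2 interferon genes were higher and 6 lower, and the list's median was -0.20 in place of 0.36. Of 13 antigen presentation genes, 6 were higher and 0 lower (median 0.51), and without DEN 4 again 6 were higher and 0 lower (median 0.02). The class II gene H2-Aa had 41.4, 36.8, 44.1 and 63.7 CPM in DEN and 24.6, 14.6, 15.6 and 17.4 CPM in Sham (log2 fold change 1.36). Of 15 complement genes, 4 were higher and 1 lower (median 0.26), and 7 were higher and 1 lower without Sham 1. Of 17 chemokine and cytokine genes tested, 8 were higher and 3 lower (median 0.63), and without Sham 1 the counts were 9 and 3 (median 1.03). Cxcl10, an interferon-induced chemokine, rose in every DEN library, to 4.14, 4.09, 3.37 and 4.94 CPM, against 0.102, 0.0245, 0.0378 and 0.0966 CPM in Sham (5.90). Il6, Il1b, Tnf and 8 other genes of this list did not pass the filter on low counts.

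Many stress response genes were higher in DEN. Of 25 immediate early genes, 13 were higher and 3 lower (median log2 fold change 0.46). Junb, an AP-1 subunit known to oppose muscle atrophy, rose to 111, 90.2, 106 and 147 CPM in DEN, against 13.4, 10.8, 7.07 and 8.93 CPM in Sham (3.50, SE 0.202). Fosl1, a Fos relative, rose to 2.15 ± 0.235 CPM in DEN, against 0.066 ± 0.0579 CPM in Sham (SD, n = 4 each, 4.96, or 5.63 without Sham 1), and Atf3 rose by 2.27 on the log2 scale. Of 21 heat shock genes, 17 were higher and 2 lower (median 0.60). Hspb8, a small heat shock protein that works with Bag3 in chaperone-assisted autophagy, rose to 1584, 1687, 1807 and 1759 CPM in DEN, against 224, 233, 243 and 226 CPM in Sham (2.88, SE 0.057). Hspb7 (2.63) and Cryab (1.72), further small chaperones of the sarcomere, followed, and Hsp90aa1, the inducible Hsp90, reached 93.5, 87.3, 93.1 and 92.8 CPM in DEN, against 36.3, 30.1, 35.2 and 35.6 CPM in Sham (1.42). Of 23 metallothionein and antioxidant genes, 18 were higher and 3 lower (median 0.62). Mt2, a metallothionein, had 25.4, 20, 59.0 and 82.3 CPM in DEN and 4.04, 1.3, 2.78 and 3.03 CPM in Sham (4.04). Mt1 had 24.4, 20.4, 53.8 and 81.5 CPM in DEN and 7.07, 5.09, 7.46 and 8.56 CPM in Sham (2.66), with DEN 3 and DEN 4 the high libraries in both genes.

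Genes of muscle stem cells and fusion moved in both directions, and cell cycle genes mostly rose. Over all tested genes, 34.0% were higher and 32.2% lower. The stem cell list, at 33.3% each way, lay near these shares. The fusion list had 25.0% higher and 41.7% lower, and the cell cycle list 68.4% and 15.8%. Pax7, the transcription factor of muscle stem cells, fell to 1.79, 2.28, 2.08 and 2.44 CPM in DEN, against 3.26, 3.53, 3.63 and 3.02 CPM in Sham (log2 fold change -0.65, adjusted p = 0.00063), a call that was lost with total counts only (-0.21, adjusted p = 0.13). Of 15 stem cell markers, 5 were higher and 5 lower (median 0.24), and 8 and 1 when scaled by total counts (median 0.67). Without DEN 4, the counts were 5 and 4 and the median was 0.0. Sdc4, a syndecan of stem cells that fibers and other cells also make, rose to 64.8 ± 6.93 CPM in DEN, against 20.9 ± 2.15 CPM in Sham (SD, n = 4 each, 1.63), and the Notch target Heyl fell (-0.88). The 2 fusogens of myoblasts were higher. Mymk, myomaker, had 3.01, 4.1, 5.67 and 5.22 CPM in DEN and 0.041, 0.0, 0.0945 and 0.0193 CPM in Sham (6.70, or 7.57 without Sham 3), and Mymx, myomixer, had 1.18 ± 0.225 CPM in DEN and 0.0193 ± 0.0267 CPM in Sham (5.70, or 6.98 without Sham 3). Over the 12 fusion and adhesion genes, 3 were higher and 5 lower (median -0.06, and 0.37 with total counts only). Of 19 cell cycle and replication genes, 13 were higher and 3 lower (median 0.70). Rrm2, a subunit of ribonucleotide reductase, rose to 10, 13.0, 11 and 9.13 CPM in DEN, against 0.901, 0.71, 0.699 and 1.04 CPM in Sham (3.68).

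Clock, insulin and prostaglandin genes each gave calls in both directions. Of 18 clock genes, 6 were higher and 7 lower (median log2 fold change -0.02, and 0.41 with total counts only). Per1 had 71.5, 69.1, 95.9 and 103 CPM in DEN and 11.5, 12.2, 37.8 and 33.8 CPM in Sham (1.82), so that libraries 3 and 4 were the higher ones in both groups. Ciart, a repressor of the clock, rose by 2.14 on the log2 scale and Hlf, a clock output factor, fell by 1.85. The hour of tissue collection is not in the labels. Of 16 insulin and IGF genes, 8 were lower and 5 higher (median -0.19, and 0.24 with total counts only). Irs1, the docking protein of the insulin and IGF1 receptors, fell to 28.7, 32.0, 28.6 and 25.9 CPM in DEN, against 127, 122, 116 and 84.9 CPM in Sham (-1.97). Akt2, a kinase of the same pathway, rose to 551 ± 19.0 CPM in DEN, against 301 ± 22.2 CPM in Sham (SD, n = 4 each, 0.87). Of 14 prostaglandin genes, 4 were higher and 3 lower (median 0.30). Hpgd, the enzyme that inactivates prostaglandin E2, rose to 21.3, 27.6, 12.3 and 16.4 CPM in DEN, against 1.02, 1.47, 0.832 and 1.45 CPM in Sham (4.04).

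Whole TA muscle was then set against the isolated EDL fibers, in which 9047 of 16724 tested genes were called (54.1%), 4532 higher (27.1%) and 4515 lower (27.0%). The difference of the DEN effects, TA minus fibers, was tested in 1 model of all 16 libraries. It was called for 3307 of 17497 genes (18.9%), 2066 with a more positive effect in TA (11.8%) and 1241 with a more negative effect in TA (7.09%). Of 15913 genes tested in both, 7198 were called in both, 6933 in the same and 265 in the opposite direction. The genes shared in direction were 65.1% of the TA calls and 79.7% of the fiber calls. TA and fibers differ in the muscle and in how the sample was prepared, and these cannot be told apart.

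**Figure D5:**
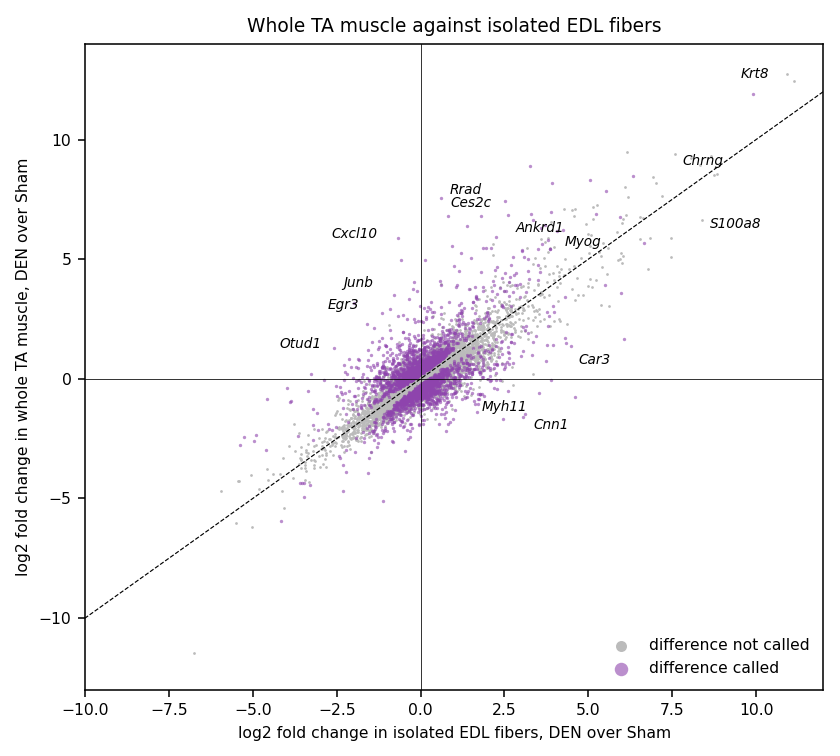
Log2 fold change, DEN over Sham, in whole TA muscle (y axis) and in isolated EDL fibers (x axis) for genes tested in both, in purple where the difference of the effects was called and in gray where it was not. The dashed line marks equal effects. Rrad, Cxcl10, Junb and Egr3 lie far above it, and Cnn1 and Car3 below it.

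Chrna1, Chrnd, Myog and Runx1 rose in both TA and fibers, with larger increases in TA. The TA minus fiber difference of the log2 fold change was 2.02 for Chrna1 (SE 0.137, adjusted p = 2.6e-07), 2.02 for Chrnd, 2.15 for Myog and 3.69 for Runx1, while for Chrnb1 (0.32), Chrng (1.84, SE 0.786) and Musk (0.01) it was not called. Over all genes tested, 11.8% had a called difference toward TA and 7.09% away from it. Of the 20 regulators, 10 had a called difference, all toward TA. Gadd45a (3.38), Cdkn1a (3.57) and Id2 (3.54) also had larger effects in TA. Trim63 and Fbxo30 were called in opposite directions, higher in TA and lower in fibers (-0.63 and -0.61), with differences of 1.27 and 2.04. The proteasome list had 26 of 31 and the ribosomal protein list 54 of 79 members with a larger effect in TA, and 0 with a smaller effect in either list. Among the glycolysis genes 1 of 28 differed each way, with a median difference of 0.02, and among the nuclear oxidative phosphorylation genes 2 of 74 differed, both toward TA.

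The immediate early and heat shock lists had opposite median signs in TA and fibers. In fibers, 21 of 25 immediate early genes were lower in DEN and 1 higher (median -1.14), against 3 lower and 13 higher in TA. Of the 25, 16 had a called difference, all toward TA, against 11.8% of all tested genes. Junb had an effect of 3.50 in TA and -0.80 in fibers, a difference of 4.31 (SE 0.249, adjusted p = 5.2e-08), and Egr3 had 2.75 in TA and -1.14 in fibers. Of 21 heat shock genes, 13 were lower and 3 higher in fibers, and 16 had a difference toward TA. Hsp90aa1 had 1.42 in TA and -1.07 in fibers (difference 2.50, SE 0.184). For Mt2 the effects were 4.04 in TA and -0.19 in fibers (difference 4.25). Scaled over all 16 libraries, Junb stood at 116 ± 24.7 CPM in DEN TA and 10.2 ± 2.76 CPM in Sham TA, and at 745 ± 72.4 CPM in DEN fibers and 1298 ± 177 CPM in Sham fibers (SD, n = 4 each).

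Further large differences concerned single genes. Rrad rose by 7.56 on the log2 scale in TA and was not called in fibers (0.62), a difference of 6.95 (SE 0.522, adjusted p = 5.5e-07). Scaled over all 16 libraries, Rrad stood at 324 ± 40.0 CPM in DEN TA and 1.7 ± 0.524 CPM in Sham TA. In fibers Rrad stood at 329 ± 96.1 CPM in DEN and at 214 ± 120.5 CPM in Sham (SD, n = 4 each). Cxcl10 had 5.90 in TA and -0.68 in fibers, not called there (difference 6.60). On the same scale, Cxcl10 stood at 4.21 ± 0.671 CPM in DEN TA and 0.066 ± 0.0401 CPM in Sham TA. In fibers Cxcl10 stood at 14.1 ± 2.61 CPM in DEN and 22.8 ± 14.4 CPM in Sham (SD, n = 4 each). Ces2c, a carboxylesterase, had 6.79 in TA and 1.81 in fibers (difference 5.0, SE 0.2). Otud1, a deubiquitinase, had 1.29 in TA, with overlapping groups and a high Sham 1 library (2.16 without it), and -2.58 in fibers. Its TA call was lost with DESeq2 and without any of 6 single libraries. Effects were smaller in TA for Car3, carbonic anhydrase of slow fibers and fat (1.37 in TA and 4.48 in fibers, difference -3.10), and Scd1 (1.51 and 4.34). The smooth muscle genes Cnn1, Tagln and Myh11 were lower in TA (-1.46, -0.85 and -0.93) and higher in fibers (3.12, 1.72 and 1.59). Their TA calls were lost with all 16 libraries in 1 fit, at adjusted p = 0.16 for Cnn1, 0.14 for Tagln and 0.1 for Myh11. In all, 8 of the 12 pericyte and smooth muscle markers had a called difference, all toward a more negative effect in TA. Over all tested genes, 7.09% had such a difference. Pax7 was lower in TA and not called in fibers (0.54), with a difference of -1.17 (adjusted p = 0.0068). Ostn was lower in TA and higher in fibers (1.02), a difference of -1.60. Tgfb1 rose in both, by 2.24 in TA and 1.11 in fibers, a difference of 1.14 (adjusted p = 0.00031), and for Spp1 the difference of 1.62 was not called (adjusted p = 0.077).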

How the data were processed

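Polyadenylated RNA of whole TA muscle was sequenced as single-end reads of 101 bases. According to the study's methods, the authors trimmed reads with cutadapt 2.1, aligned them to GRCm38 with TopHat2 2.1.0 and counted them per gene of Ensembl release 100 by strand with featureCounts 1.6.5. The deposited counts were tested as they stand. The deposited RPKM values, which the authors divided by gene length and depth, were used only for shares between genes, and the definition of length is not given in the sources used here. Groups follow the labels. Genes passing filterByExpr (minimum count 10) were tested with the quasi-likelihood test of edgeR 4.0.16 (limma 3.58.1, R 4.3.3) after TMM scaling, with Benjamini-Hochberg adjustment and a threshold of 0.05. Fibers were fitted separately, and the TA minus fiber difference in all 16 libraries. SE is the log2 fold change over the square root of F. Shares were compared by exact permutation. The test was checked on simulated counts. Gene coordinates and names were matched to GENCODE on GRCm38 for 16346 of 16379 tested identifiers. Where several identifiers had 1 symbol, that with the most counts was used.

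Named genes are 30 fixed genes, the 10 largest changes in each direction (mean of at least 10 CPM in the higher group), up to 4 members per list (at least 1 CPM) and the 8 largest TA minus fiber differences in each direction, all past the threshold, without predicted genes and, except for the differences, without overlap. Genes given as the exceptions of a list, and S100a9, Psmb2, Gbp2, Cxcl9, Prg4 and the junction genes named as such, lie outside this rule and were chosen after their values were seen. The members and lists were chosen with earlier results of these data known. Alternatives were DESeq2 1.42.0 (the study's tool), RLE or total count scaling, no filter, a mean of at least 1 CPM, all 16 libraries in 1 fit, the replicate number as a block, and leaving out each library. Total counts per TA library were 47570214 to 62297405. Intervals and floors cover counting error only. Some genes that met the rule for named genes are not reported here.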

Additional observations from a re-analysis of the deposited data

Results flagged for a closer look

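Single libraries lay far from the other 3 of their group, by the ratio of the gap to the group's range, for a number of named genes. Chance gives such a value in about 1 in 20 groups. With 215 named genes, a number of the values below are therefore expected by chance alone. DEN 1 stood apart from the other DEN libraries in Myh4 (14817 CPM) and Suclg1 (233 CPM). DEN 2 stood apart from the other DEN libraries in Postn (89.5 CPM), Hsp90aa1 (87.3 CPM) and Pmp22 (9.37 CPM). DEN 3 stood apart from the other DEN libraries in Chrna1 (465 CPM), Chrng (90.4 CPM), Myom3 (659 CPM) and Col15a1 (35.2 CPM). DEN 4 stood apart from the other DEN libraries in Ostn (5.31 CPM) and Ciita (2.36 CPM). Sham 1 stood apart from the other Sham libraries in Fbxo32 (419 CPM), Trim63 (277 CPM), Spp1 (2.23 CPM), Lgals3 (6.21 CPM), Ighm (326 CPM), Scd2 (40.2 CPM), Atf3 (7.82 CPM), Srxn1 (25.7 CPM), Ccr2 (3.01 CPM) and Otud1 (46.5 CPM). Sham 2 stood apart from the other Sham libraries in Gadd45a (15.8 CPM), Cs (1037 CPM) and Hsp90aa1 (30.1 CPM). Sham 3 stood apart from the other Sham libraries in Fbxo30 (16.6 CPM). Sham 4 stood apart from the other Sham libraries in Asns (1.66 CPM), Rpl19 (84.9 CPM), Jph2 (1263 CPM), Cox7a1 (277 CPM), Suclg1 (322 CPM) and Ciart (2.36 CPM).

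The DEN effect differed between whole TA muscle and isolated EDL fibers for 3307 genes. Among the named ones, the TA minus fiber difference of the log2 fold change was positive for Junb (4.31), Rrad (6.95), Ankrd1 (4.27), Cxcl10 (6.60), Egr3 (3.91), Mt2 (4.25), Ces2c (5.0) and Otud1 (3.88). It was negative for Scd1 (-2.81), Myh11 (-2.51), Tagln (-2.55), Car3 (-3.10), Cnn1 (-4.57), Myh7 (-2.40) and Adcy5 (-2.39). Without TA Sham 4 the difference of Scd1 was -2.17, and without TA Sham 1 that of Otud1 was 4.70. Without EDL DEN 4 those of Myh11 and Adcy5 were -1.82 and -1.58, the last no longer called (adjusted p = 0.054). The call for the Adcy5 difference was also lost without EDL Sham 1, Sham 2 or Sham 4, and without TA DEN 1, DEN 3 or DEN 4. The TA call of Adcy5 was lost with total counts only (adjusted p = 0.23) and with all 16 libraries in 1 fit (adjusted p = 0.32).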

How the results depend on the processing

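Of 215 named genes, 214 were called, and 198 kept direction and threshold under each alternative that tested them. With a mean of at least 1 CPM required, 205 of the 215 were tested, and the lymphocyte list could not be given a value. With total counts only, 9983 genes were called higher and 2273 lower, and C1s1 (0.12), Ptges2 (0.08) and Myh7 (0.40) changed sign. Myh7, not called with all libraries (-0.03), also changed sign without DEN 2 (0.08) and Sham 2 (0.13), in a range of -0.20 to 0.13 over single libraries left out. Leaving out single libraries gave 10279 to 10861 called genes in TA (5127 to 5649 higher and 5002 to 5272 lower), 5902 to 6136 with a change of 0.58 or more on the log2 scale, 8242 to 9299 in fibers and 2475 to 3769 for the TA minus fiber difference. DESeq2 called 10525 genes in TA, 9052 in fibers and 3682 for the difference. Total counts only shifted each list's median by 0.42 to 0.44 and changed the sign of 11 of 53. The causes were not tested.

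Replicate numbers are shared between groups but name no shared animal or day. Deviations of libraries with the same number correlated at -0.062 to 0.115 between DEN and Sham TA, at 0.0521 to 0.26 between DEN and Sham fibers, and at -0.065 to 0.203 between TA and fibers. In TA, 1 DEN library correlated best with the Sham library of its number. In fibers, DEN 1, DEN 2 and DEN 3 did so (0.0601, 0.19 and 0.26), and DEN 4 did not. Between TA and fibers of a group, TA DEN 1 and DEN 4 (0.13 and 0.203) matched best by number. So did TA Sham 1, Sham 2 and Sham 4 (0.17, 0.183 and 0.0892), while TA DEN 2, DEN 3 and Sham 3 did not. Whether any libraries share an animal was not tested. With the replicate number as a block, 10478 genes were called in TA (5389 higher, 5089 lower), 5956 of them at 0.58 or more, 9347 in fibers and 3301 for the difference. The TA minus fiber differences of Myh11 (-2.02) and Adcy5 (-1.94) were then not called.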
